A study of Zea mays with 11 samples.

Results

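A set of 89 gene rows had almost no reads in replicates 1 and 2 of anthers of the maize (*Zea mays*) meiotic mutant *pam1*. All 89 had reads in every library of anthers of the wild-type inbred line A344. The rows were chosen by the counts themselves. Each had at most 3 counts summed over *pam1* replicates 1 and 2, and a mean of at least 5 CPM (the count divided by the library total, times 1000000) over the 3 A344 libraries. *pam1* replicate 3 was not used to choose them, and it had a count in 86 of the 89. They were 89 of the 44474 rows of the count table, and 0.512% of the 17377 rows that reached 5 CPM in A344. Identifiers Zm00001d027230 to Zm00001d027529 were left out of the choice.

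The mutant group was *pam1* (3 libraries) and the wild-type group A344 (3 libraries), both from anthers at prophase I of meiosis. The labels name *pam1* as the mutant's line and do not say which inbred background carried the allele, so loss of PAM1 and any difference in line cannot be told apart. They name no plant, pool or batch, so the spread between replicates may be partly technical. Total counts were 2002784 to 2595247 in the *pam1* libraries and 1918457 to 2420973 in the A344 libraries. The limit of 3 counts over *pam1* replicates 1 and 2 corresponds to 0.648 CPM.

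PAM1 is a protein with an RNA recognition motif that acts in male meiosis of maize, where homologous chromosomes pair and recombine in meiocytes enclosed by the somatic layers of the anther. Anther RNA is a mixture of meiocyte and somatic RNA, and in such bulk samples fewer cells of a type and less RNA per cell cannot be told apart. The Zm00001d identifiers belong to the gene models of the reference inbred B73, and maize inbred lines differ from one another in gene content as well as in expression. A row therefore reports reads that match a B73 gene model, whatever line they came from. The files do not pair these identifiers with gene names, and 0 of the 89 matched a symbol in the gene table used for names, so the rows are described by identifier and no function is given to any of them. For the same reason the 5 meiocyte and 5 tapetum marker genes, looked up by symbol, could not be matched to rows, which says nothing of their expression. The labelled tissue and the mutant label were therefore not checked against marker genes.

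The values that chose the rows are a description and are not tested. Over *pam1* replicates 1 and 2 together, 26 of the 89 rows were empty, 21 had 1 count, 19 had 2 counts and 23 had 3 counts. Together they held 55 counts in *pam1* replicate 1 and 73 in *pam1* replicate 2, against 2657, 2004 and 2346 counts in A344 replicates 1 to 3. The mean A344 level ran from 5.005 to 42.5 CPM with a median of 7.40 CPM. It was under 10 CPM in 56 rows, at least 20 CPM in 14 rows and at least 40 CPM in 4 rows. Most of the set was thus weakly expressed in A344 as well.

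The limits cut through a continuous range. Just inside the A344 limit, Zm00001d038519 had 2, 1 and 3 counts in *pam1* replicates 1 to 3, against 12, 10 and 11 in A344 replicates 1 to 3 (5.005 CPM). Next came Zm00001d050598, with 1, 0 and 1 counts in *pam1* and 9, 9 and 15 in A344 (5.01 CPM). Just outside were Zm00001d034729, with 1, 0 and 1 counts in *pam1* and 6, 12 and 14 in A344 (4.97 CPM), and Zm00001d035819, with no count in *pam1* and 15, 9 and 9 in A344 (4.95 CPM). Just over the count limit, 18 rows of at least 5 CPM had 4 counts in *pam1* replicates 1 and 2, and 13 rows had 5 counts.

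The 6 rows with the highest A344 levels show the pattern most clearly. Zm00001d036609 had 0, 0 and 14 counts in *pam1* replicates 1 to 3, against 119, 71 and 94 in A344 replicates 1 to 3. Zm00001d037632 had 0, 0 and 27 counts in *pam1*, against 88, 66 and 127 in A344. In both rows *pam1* replicates 1 and 2 were empty, while *pam1* replicate 3 had reads, though fewer than any A344 library. Zm00001d007405 had 0, 1 and 13 counts in *pam1*, against 109, 84 and 84 in A344. Zm00001d008951 had 0, 0 and 18 counts in *pam1*, against 99, 82 and 86 in A344. The *pam1* replicates thus differed from one another in each of these rows, while the A344 libraries ran from 37.0 to 49.2 CPM in Zm00001d036609, from 34.4 to 55.9 CPM in Zm00001d037632, from 37.0 to 45.0 CPM in Zm00001d007405 and from 37.9 to 42.7 CPM in Zm00001d008951. Zm00001d026420 had 1, 0 and 20 counts in *pam1*, against 89, 68 and 58 in A344. Zm00001d038019 had 0, 0 and 9 counts in *pam1*, against 70, 70 and 47 in A344. In all 6 rows no *pam1* library reached the lowest A344 library.

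For Zm00001d036609, with no count in *pam1* replicates 1 and 2, a floor of 3 counts over those libraries corresponds to 1.51% of its A344 level. Its 95% interval (exact, conditional on the total) reached 1.87% of A344. This interval, like all others here, covers counting error only. For rows near the limits the bound is wider, since a row with 3 counts at 5 CPM stands at 13.0% of A344 before counting error. For Zm00001d038519, with 3 counts over those libraries, the interval reached 41.4% of A344. Silent in the present sense means at or near the detection limit of these libraries, not absence of transcript.

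**Figure D1:**
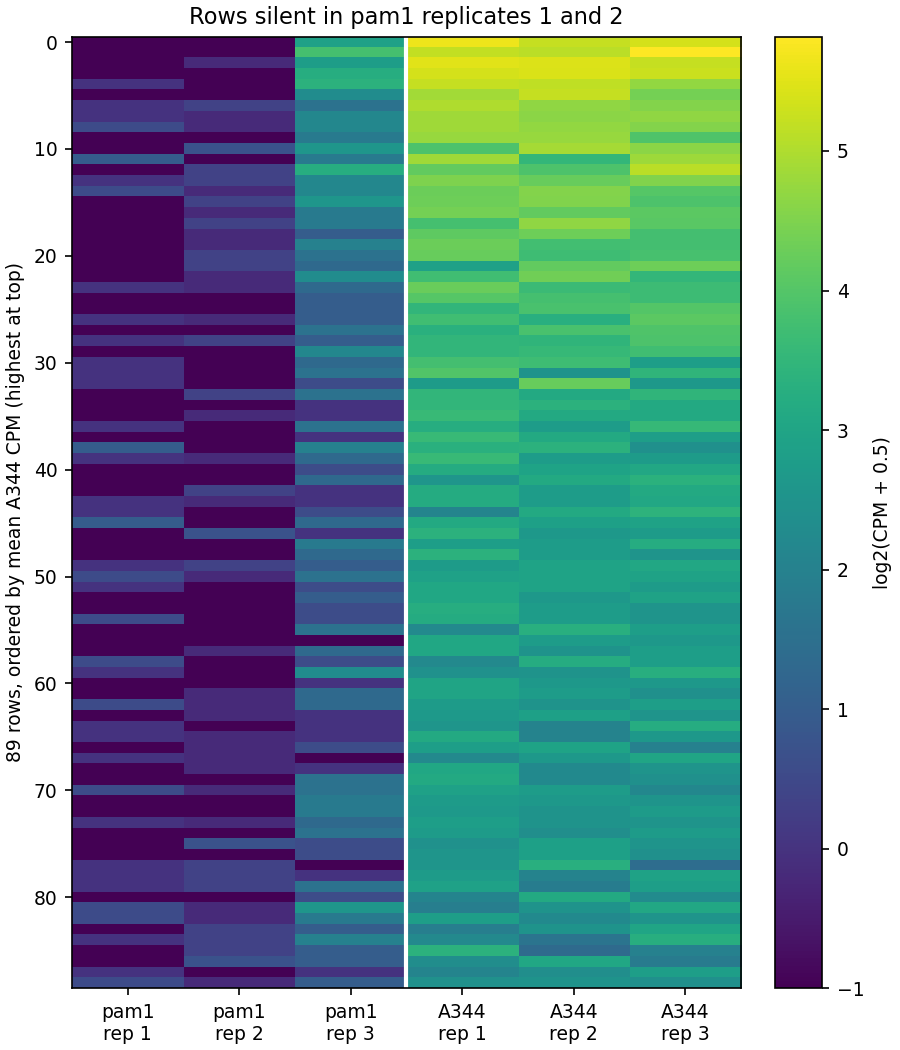
Level of the 89 rows (vertical, highest mean A344 level at the top) in each library (horizontal, *pam1* libraries left of A344 libraries), coloured by log2(CPM + 0.5). *pam1* replicates 1 and 2 are dark by the rule, while *pam1* replicate 3, which the rule did not read, has a count in 86 of 89 rows, lies above both other *pam1* libraries in 82 and lies below every A344 library in 87.

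*pam1* replicate 3 was the only RNA-seq library that the rule did not read. It had a count in 86 of the 89 rows, against 39 rows in *pam1* replicate 1 and 48 rows in *pam1* replicate 2, which were limited by the rule. Summed over the rows, the level was 225 CPM in *pam1* replicate 3, against 1097, 1045 and 1033 CPM in A344 replicates 1 to 3. By the same sum, *pam1* replicates 1 and 2 stood at 27.0 and 28.1 CPM. From the pooled counts, *pam1* replicate 3 was at 21.2% of the A344 level (95% interval 19.3 to 23.4%), while *pam1* replicates 1 and 2 were at 2.55% and 2.65%. Over all 17377 rows of at least 5 CPM in A344, the median level was 97.9% of A344 in *pam1* replicate 3. It was 99.2% and 100.0% in *pam1* replicates 1 and 2. CPM is scaled to each library's own total, so medians near 100% say nothing of the amount of RNA in a library.

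The level in *pam1* replicate 3 lay below every A344 library in 87 of the 89 rows and above both other *pam1* libraries in 82. In no row was it above every A344 library. The ratio of *pam1* replicate 3 to A344 had a median of 18.6% over the rows, with quartiles at 12.5% and 30.0%. Pooled over the 26 rows with no count in *pam1* replicates 1 and 2 it was 21.4% (18.0 to 25.3%), and over the rows with 1, 2 and 3 counts it was 20.3%, 19.5% and 23.4%, with intervals that all held the pooled 21.2%. By A344 level it was 24.4% (20.9 to 28.4%) over the 56 rows under 10 CPM and 20.4% (17.4 to 23.8%) over the 14 rows of at least 20 CPM.

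The ratio of most single rows was within counting error of the pooled value. The 95% interval of a row's own ratio held the pooled 21.2% in 85 of 89 rows, lay above it in 4 and below it in 0. These intervals were wide, as the median row had 4 counts in *pam1* replicate 3. Even Zm00001d010482, with no count there, had an upper limit of 28.9%, so most rows could not have fallen below. The intervals therefore do not show that the rows shared a ratio. The chi-square per degree of freedom of the counts about a common ratio was 1.67 for *pam1* replicate 3 against A344, where counting error alone gives about 1. The same measure for each A344 library against the other A344 libraries was 1.89, 1.95 and 2.04. The counts of *pam1* replicate 3 were lower than those of A344, and lower counts give this measure less room to rise above 1. Across the 89 rows the CPM of *pam1* replicate 3 and the mean CPM of A344 had a Spearman rho of 0.51 and a Pearson r of 0.77. For each A344 library against the mean of the others, rho was 0.70 to 0.71. The rows share their libraries and are not independent replicates, so these correlations carry no test.

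**Figure D2:**
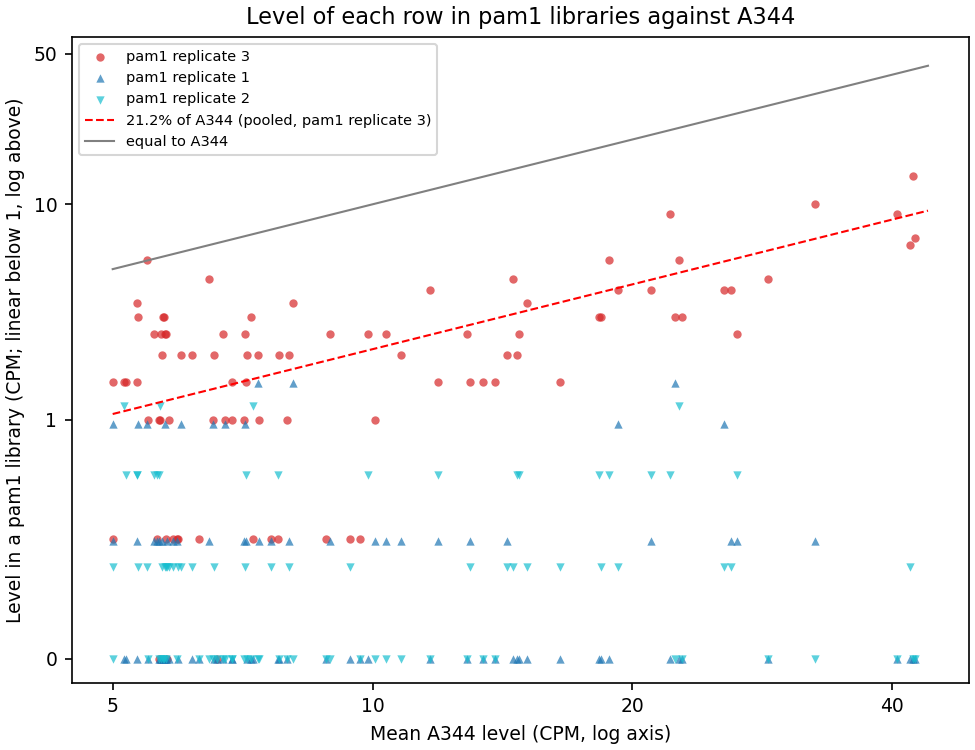
Level of each of the 89 rows in the *pam1* libraries (vertical, CPM, linear below 1 and logarithmic above) against its mean level over the A344 libraries (horizontal, CPM, logarithmic). Points of *pam1* replicate 3 scatter about the dashed line at 21.2% of the A344 level (quartiles of the ratio 12.5% and 30.0%). Nearly all lie below the grey line of equality, while *pam1* replicates 1 and 2 lie near 0 by the rule.

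The 4 rows with intervals above the pooled ratio were Zm00001d009608, Zm00001d026370, Zm00001d011340 and Zm00001d006195, named after their values were seen. Zm00001d009608 had 2, 1 and 11 counts in *pam1* replicates 1 to 3, against 8, 10 and 18 in A344 replicates 1 to 3. Its level in *pam1* replicate 3 was 101% of A344 (46.3 to 202%), inside the range of the A344 libraries. Zm00001d011340 had 1, 2 and 7 counts in *pam1*, against 10, 5 and 21 in A344, or 64.2% in *pam1* replicate 3 (24.1 to 146%). These were the rows in which *pam1* replicate 3 overlapped with A344, and both were near the lower limits of the rule. Zm00001d026370 had 1, 0 and 9 counts in *pam1*, against 12, 10 and 21 in A344, or 69.1% in *pam1* replicate 3 (29.6 to 144%).

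Among the 33 rows of at least 10 CPM in A344, where the ratio is better determined, it ran from 9.17% to 40.1%. The highest was Zm00001d006195, with 0, 2 and 18 counts in *pam1*, against 43, 28 and 77 in A344 (40.1%, 23.2 to 65.7%). Zm00001d010725 followed, with 0, 0 and 8 counts in *pam1* and 26, 22 and 29 in A344 (34.3%, 14.3 to 71.0%), and then Zm00001d037632 (31.7%, 20.5 to 47.1%). At the low end, Zm00001d008585 had 0, 1 and 3 counts in *pam1*, against 41, 37 and 30 in A344 (9.17%, 1.86 to 27.5%). Zm00001d051103 had 1, 2 and 5 counts in *pam1*, against 76, 48 and 52 in A344 (9.38%, 3.01 to 22.3%), and Zm00001d022855 had 1, 0 and 2 counts in *pam1*, against 15, 35 and 13 in A344 (10.5%, 1.24 to 39.4%). The intervals at the low end overlap with those at the high end, except that the interval of Zm00001d051103 ended below the lower limit of Zm00001d006195. In Zm00001d022855 a single A344 library, replicate 2, held most of the reads, at 18.2 CPM against 6.20 and 5.73 CPM in A344 replicates 1 and 3.

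Only 3 rows had no count in *pam1* replicate 3. Zm00001d010482 was empty in all 3 *pam1* libraries, against 19, 12 and 13 counts in A344. Its *pam1* replicate 3 level could be up to 28.9% of A344 by counting error. Zm00001d005652 had 1, 2 and 0 counts in *pam1* and 13, 18 and 5 in A344, with an upper limit of 35.6%. Zm00001d049150 had 1, 1 and 0 counts in *pam1* and 10, 11 and 17 in A344, with an upper limit of 33.6%. In all 3 rows the upper limit was above the pooled 21.2%, so a level like that of the other rows was within counting error.

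Since the rule read *pam1* replicates 1 and 2 and not replicate 3, the libraries were also compared under a rule that reads a single *pam1* library. Of rows with no count in *pam1* replicate 1 and at least 10 CPM in A344 there were 24. In these, *pam1* replicate 3 had a count in 24 and stood at 20.8% of A344 (18.1 to 23.8%), while *pam1* replicate 2 had a count in 15 and stood at 4.08% (3.08 to 5.31%). With *pam1* replicate 2 as the library read there were 15 such rows. In those, *pam1* replicate 3 had a count in 15 and stood at 20.8% (17.4 to 24.8%), while *pam1* replicate 1 had a count in 6 and stood at 1.81% (0.932 to 3.16%). Most rows of both lists were among the 89, so the values of 20.8% largely repeat the counts behind the pooled 21.2%. With *pam1* replicate 3 as the library read there were 0 such rows. At 5 CPM there were 58, 42 and 7 rows for *pam1* replicates 1, 2 and 3. In the 7 rows empty in *pam1* replicate 3, *pam1* replicate 1 stood at 34.0% of A344 (22.5 to 49.5%) and *pam1* replicate 2 at 20.4% (12.7 to 31.2%). Under the rule on pairs of *pam1* libraries, with at most 3 counts over the pair and at least 5 CPM in A344, the library left out was at 21.2% for *pam1* replicate 3 (89 rows), 7.26% (5.12 to 10.01%) for *pam1* replicate 1 (33 rows) and 7.49% (5.71 to 9.66%) for *pam1* replicate 2 (41 rows). In rows empty in *pam1* replicate 1 or 2, *pam1* replicate 3 was thus the higher of the libraries not read, and fewer rows were empty in *pam1* replicate 3 than in the others.

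*pam1* replicate 3 was also the higher library in rows that were low but not silent. Rows of at least 10 CPM in A344 were put into classes by their level in *pam1* replicate 2 alone, and the other *pam1* libraries were then read. In the 23 rows at 2 to 5% of A344 in *pam1* replicate 2, *pam1* replicate 1 was at 4.08% (3.09 to 5.30%) and *pam1* replicate 3 at 24.2% (21.6 to 27.0%). Many rows of that class were among the 89 silent rows, such as Zm00001d051103 and Zm00001d006195, so it is not a separate reading. The classes from 20% up held none of the 89, which had at most 1.16 CPM in *pam1* replicate 2. In the 185 rows at 20 to 40%, *pam1* replicate 1 was at 36.5% (35.5 to 37.4%) and *pam1* replicate 3 at 51.7% (50.5 to 52.9%). In the 2021 rows at 60 to 80%, *pam1* replicate 1 was at 75.6% and *pam1* replicate 3 at 80.7%. The gap between *pam1* replicates 3 and 1 narrowed as the level rose, and in the 8514 rows at 80 to 120% they stood at 97.1% and 97.3%.

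**Figure D3:**
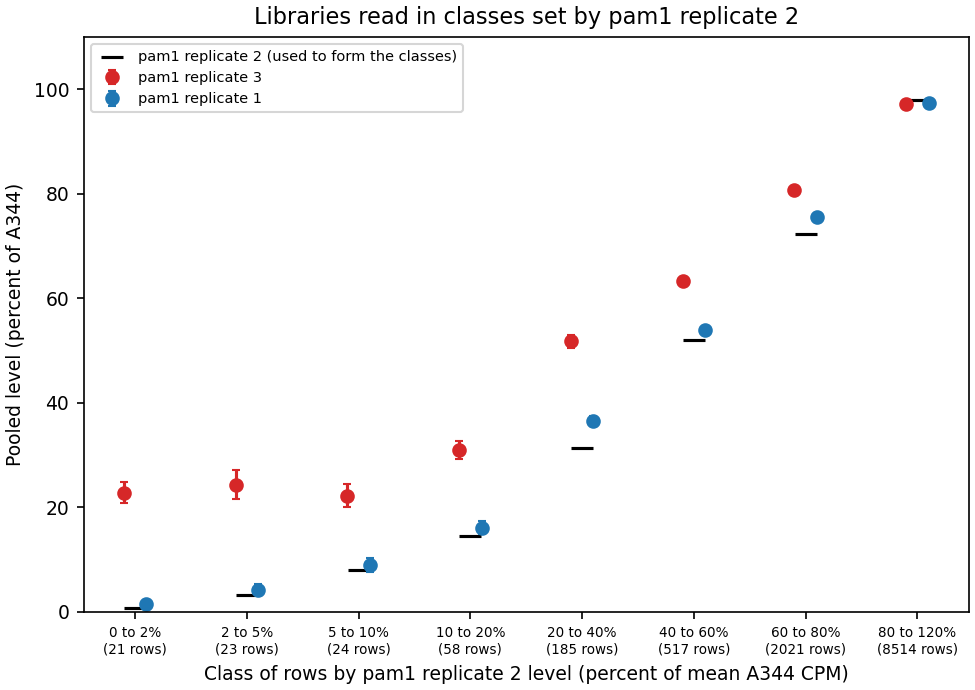
Pooled level in *pam1* replicates 3 and 1 (vertical, percent of A344) for rows of at least 10 CPM in A344, in classes by the level in *pam1* replicate 2 (horizontal, with the number of rows); bars are 95% counting intervals and black dashes show *pam1* replicate 2 itself. *pam1* replicate 3 does not fall below 22.2% in any class, whereas *pam1* replicate 1 follows replicate 2 down to 1.53%. The lowest classes include many of the silent rows.

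Rows of the opposite kind were read for comparison. Rows with at most 3 counts over the 3 A344 libraries and at least 5 CPM in *pam1* were chosen with each *pam1* library left out in turn, and the library left out was set against the other 2. *pam1* replicate 3 stood at 76.3% of the others (73.3 to 79.4%, 157 rows), while *pam1* replicate 1 stood at 99.6% (95.8 to 103%, 140 rows) and *pam1* replicate 2 at 114% (110 to 119%, 134 rows). *pam1* replicate 3 was thus higher than the rest of its group where A344 was the higher line and lower than the rest of its group where *pam1* was. No A344 library stood apart to that extent when each was left out of the rule for rows silent in *pam1*. A344 replicate 1 stood at 102% of the others (97.1 to 107%, 90 rows), replicate 2 at 93.6% (88.8 to 98.6%, 96 rows) and replicate 3 at 93.2% (88.6 to 98.0%, 86 rows). Under both rules the libraries kept had to reach 5 CPM, which can lower the library left out relative to them. Rows with no count in 1 A344 library and at least 10 CPM in *pam1* were at 1.32% to 2.50% of *pam1* in the other A344 libraries (44 to 50 rows). Whether *pam1* replicate 3 contained RNA of A344 type was not tested.

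The edgeR comparison of *pam1* with A344 is given here as a description, since the rule used the same contrast. Of all 18491 tested rows, 6.68% were lower in *pam1* by edgeR's quasi-likelihood test (Benjamini-Hochberg adjusted p under 0.05). Of the 89 rows, 69 had enough counts to be tested, through their A344 libraries, and 20 did not. Among the 69, 67 were called lower and none higher, with log2 fold changes from −6.90 to −1.35 and a median of −3.66, against −0.01 over all tested rows. The rows tested and not called were Zm00001d009608 and Zm00001d026370, already described for their high level in *pam1* replicate 3. Without *pam1* replicate 3, 86 rows were tested and 86 called lower (5.64% of all rows), with a median log2 fold change of −5.04. With only *pam1* replicates 2 and 3 the median was −3.28, and with only replicates 1 and 3 it was −3.22.

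In the authors' deposited table, 69 of the 89 rows were higher in A344 at adjusted p under 0.05, where 3.34% of rows with an adjusted p were, and 20 were not. The 20 rows not called in the authors' deposited table had 3 to 27 counts in *pam1* replicate 3 (median 8.5), and the 69 called had 0 to 13 (median 3). Of the 14 rows of at least 20 CPM in A344, 6 were not called in the authors' deposited table, among them Zm00001d036609, Zm00001d037632 and Zm00001d008951, which had no count in *pam1* replicates 1 and 2. By edgeR 14 of those 14 rows were lower in *pam1*.

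Within A344 the rows varied between libraries as follows. The coefficient of variation over the 3 A344 libraries had a median of 22.8% over the 89 rows, and of 18.3% over the 11349 rows from 5 CPM up to the highest member's level, whose median level was higher (16.9 CPM against 7.40 CPM). In 67 of the 89 rows the highest A344 library was at most 2 times the lowest. The highest A344 library was replicate 1 in 49.4% of the rows, replicate 2 in 23.6% and replicate 3 in 27.0%, against 40.1%, 29.6% and 30.3% over all rows of at least 5 CPM. Low counts spread more by sampling alone, and the A344 levels entered the rule, so these values were not compared further.

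The rows were spread over the whole count table. Table order follows 10 long stretches of ascending identifiers and a short end of 531 rows, and all 10 stretches held members. Their numbers follow the table and are not chromosome numbers. As a share of rows of at least 5 CPM in A344, stretch 9 was highest with 15 of 1618 (0.927%, exact binomial 95% interval 0.520 to 1.52%), followed by stretch 7 with 13 of 1417 (0.917%, 0.489 to 1.56%). Stretch 1, the longest, held 14 of 2597 (0.539%, 0.295 to 0.903%). Stretch 4 held 2 of 1875 (0.107%, 0.0129 to 0.385%) and stretch 6 held 4 of 2140 (0.187%, 0.0510 to 0.478%). The intervals of stretches 4 and 6 lay below the 0.512% of the whole table and that of stretch 9 just above it; the intervals were not adjusted for their number. The short end held 0 of 126 such rows, for which a floor of 3 rows is 2.38% and the upper limit of the exact binomial interval 2.89%.

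The level of *pam1* replicate 3 relative to A344 ran from 11.7% (6.90 to 18.7%) in stretch 5 to 36.2% (15.0 to 75.1%) in stretch 4, which rests on 2 rows, and the interval held the pooled 21.2% in 9 of 10 stretches, stretch 5 being the exception. Reads in *pam1* replicate 3 thus came from rows of all 10 stretches and not from a single region.

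**Figure D4:**
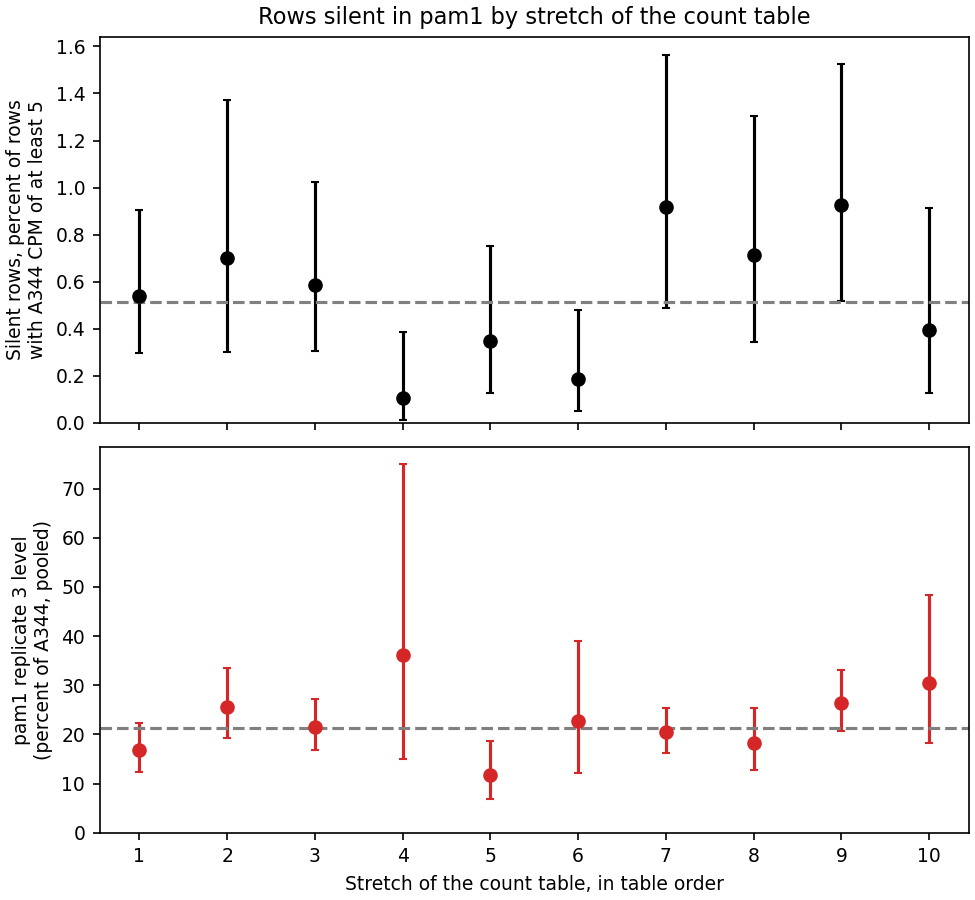
Upper panel, rows silent in *pam1* as a percent of rows of at least 5 CPM in A344, by stretch of the count table; lower panel, level of *pam1* replicate 3 over those rows as percent of A344. Points are values with 95% intervals and dashed lines the whole table (0.512% and 21.2%); stretches 7 and 9 hold the highest shares and stretches 4 and 6 the lowest.

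Few of the rows lay side by side. Within 5 table rows of another member were 2 of the 89 (2.25%), Zm00001d026366 and Zm00001d026370, and 1.91% of the other rows of at least 5 CPM in A344 lay that close to a member. That pair belonged to the densest place in the table, in stretch 2, singled out after its values were seen: 6 members in 59 table rows, of which 24 reached 5 CPM in A344. No span of 100 rows starting at any other member held more than 3. Besides the pair, these were Zm00001d026376, Zm00001d026392, Zm00001d026420 and Zm00001d026431.

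Zm00001d026366 had 3, 0 and 7 counts in *pam1* replicates 1 to 3, against 23, 19 and 11 in A344 replicates 1 to 3. Zm00001d026376 had 0, 0 and 6 counts in *pam1*, against 65, 51 and 34 in A344. Zm00001d026392 had 1, 1 and 3 counts in *pam1*, against 31, 18 and 38 in A344, and Zm00001d026431 had 1, 0 and 5 counts in *pam1*, against 22, 12 and 26 in A344. Together the 6 rows stood at 27.1% of A344 in *pam1* replicate 3 (19.9 to 36.2%), an interval that held the pooled ratio of all members. Among the other rows of this span, 18 were tested by edgeR, of which 4 were lower (22.2%) and 3 higher (16.7%) in *pam1*. Over all tested rows the shares were 6.68% lower and 8.18% higher. Without *pam1* replicate 3, 5 were lower and 4 higher of 20 tested, where all rows had 5.64% lower and 6.89% higher. The span was chosen for its members and holds few rows, so these shares are a description.

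The rows around all members were read in the same way. Within 5 table rows of a member lay 873 other rows, of which 529 had too few counts to be tested. Of those tested, 35 were lower by edgeR (10.2%, 95% binomial interval 7.19 to 13.9%), against 6.68% of all tested rows, and 26 were higher (7.56%), against 8.18%. Their median log2 fold change was −0.02, against −0.01 over all tested rows, so the neighbours as a whole were not shifted. Among the 70 tested rows next to a member, 11 were lower (15.7%, 8.11 to 26.4%) and 3 higher (4.29%). At 6 to 10 rows, 9.58% were lower (6.65 to 13.3%) and 11.98% higher (8.70 to 15.9%), so higher calls outnumbered lower ones there. At 11 to 20 rows the shares were 6.72% lower and 8.91% higher. Without *pam1* replicate 3 the share within 5 rows was 10.2%, where all rows had 5.64%, and with the replicate number as a block it was 13.7%, where all rows had 8.41%. Neighbouring rows can overlap on the genome or share reads, which was not tested, and they are not independent of each other, so the intervals are too narrow.

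**Figure D5:**
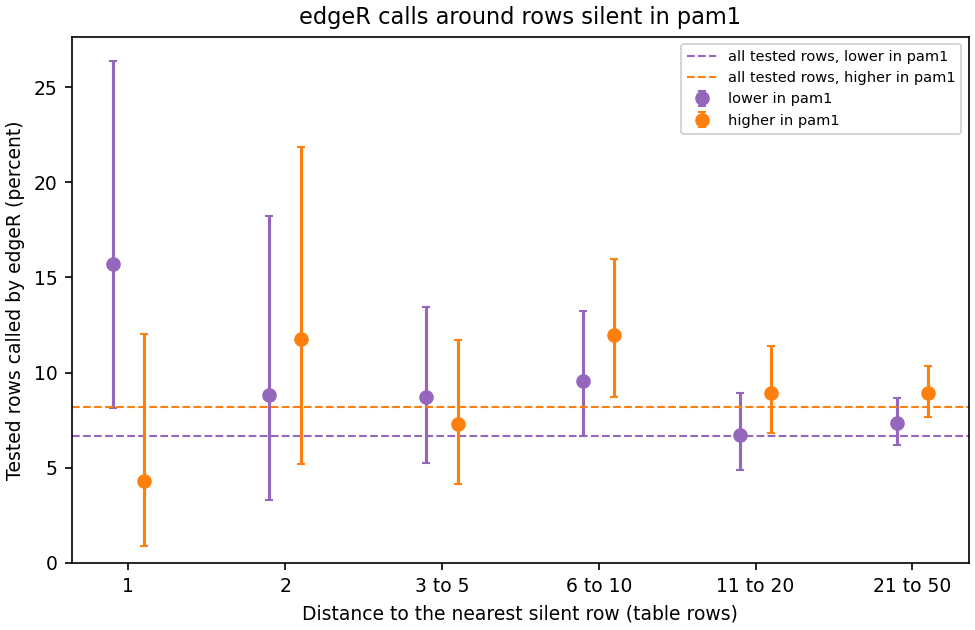
Percent of tested rows called lower or higher in *pam1* by edgeR (vertical) by distance in table rows to the nearest silent row (horizontal); bars are 95% binomial intervals and dashed lines the shares over all tested rows. Lower calls reach 15.7% next to a silent row, higher calls reach 11.98% at 6 to 10 rows, and from 11 rows on both kinds of call lie near the lines.

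Rows of the opposite kind near the members were also counted. Within 5 table rows of a row with at most 3 counts in A344 and at least 5 CPM in *pam1* replicates 1 and 2, of which the table held 157, were 7 of the 89 members (7.87%, 3.22 to 15.5%), against 3.08% of the other rows of at least 5 CPM in A344. Within 10 rows the shares were 13.5% (7.17 to 22.4%) and 6.24%. The counts are small, the lower limits of the intervals are close to the shares of the other rows, and no test of this difference was made.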

How the data were processed

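RNA-seq counts of anthers from 3 *pam1* and 3 A344 libraries were used; the immunoprecipitation peak list was not used here, since no annotation of its build was at hand. Groups came from the titles. Libraries were made from total RNA with a strand-marking NEBNext kit, per the labels' protocols. Per the submitters' processing notes, tools included STAR and DESeq2, with no role stated; the counting program, whether it used strand, and how it handled reads with several matches are details not given in the sources used here. The deposited count table holds whole, unnormalized counts. The authors' deposited comparison table holds, per the file headers, a mean signal (counts divided by size factors), log2 fold changes with errors, a test score and raw and adjusted p-values; its log2 values are positive where A344 is higher.

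The members, lists and limits were chosen with earlier results of these data known; held-out libraries, classes, stretches, distances and the densest span were added after the data were seen. Named rows were the 6 highest in A344, the 3 highest and 3 lowest in *pam1* replicate 3 ratio among those of at least 10 CPM, the longest run and those nearest the limit. CPM use library totals. edgeR 4.0.16 in R 4.3.3 (TMM, filterByExpr, two-sided quasi-likelihood test) was fitted to the whole table as *pam1* minus A344 and tested on simulated data; DESeq2 1.42.0 was an alternative. Ratios of pooled counts carry exact conditional and shares exact binomial 95% intervals (scipy 1.17.1). No pair of libraries was a duplicate (chi-square per degree of freedom 1.99 to 5.42 within groups). Same-numbered *pam1* and A344 libraries deviated together (r = 0.134, 0.118 and 0.128 for numbers 1 to 3, against −0.145 to 0.0171 for unlike numbers), so a fit with the number as a block was also made; the pairing comes from these data, not from the labels.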

Additional observations from a re-analysis of the deposited data

How the results depend on the processing

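The number of silent rows depends on its limits, by construction: 26 rows with no count and 47 with at most 1 count in *pam1* replicates 1 and 2, 146 at 3 CPM or more in A344, 33 at 10 CPM or more, and 25 with the limit of 3 counts over all 3 *pam1* libraries, against 89. Leaving out 1 library gave 86 to 182 rows, with 143 without *pam1* replicate 1 and 182 without *pam1* replicate 2, where the limit covers 1 library. The pooled *pam1* replicate 3 level of 21.2% was 18.6% as a median over rows and 21.0% to 21.7% without 1 A344 library. edgeR called 65 to 86 members lower without 1 library, and 68 with the replicate block, against 67; the block changed no direction. The share of neighbours called lower (10.2%) was 5.33% by DESeq2 (all rows 3.34%), 6.94% with no low-count filter (all rows 4.78%), 6.40% at adjusted p under 0.01 (all rows 3.22%), and 6.89% to 10.6% without 1 library (all rows 3.80% to 6.99%). Members within reach of another member numbered 2, but 0 with 3 rows as the limit and 5 when only rows of at least 1 CPM were counted as steps. In rows empty in *pam1* replicate 1, *pam1* replicate 2 stood at 4.08%, at 5.54% with a limit of 5 CPM, and at 5.42% with at most 1 count. No row was empty in *pam1* replicate 3 at 10 CPM; at 5 CPM, over 7 such rows, *pam1* replicates 1 and 2 stood at 34.0% and 20.4%, and in the 1 row with at most 1 count there at 10 CPM they stood at 17.8% and 3.98%. Depth limits single rows: for 10 members the interval of the *pam1* replicate 3 level reached 100% of A344.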
